A study of Arabidopsis thaliana with 12 samples.

Results

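The SWI/SNF chromatin remodelling complexes of *Arabidopsis thaliana* were examined through 10 genes that encode their subunits. They were chosen by locus identifier and not by a measured value: the scaffold genes *SWI3A* (AT2G47620), *SWI3B* (AT2G33610), *SWI3C* (AT1G21700) and *SWI3D* (AT4G34430), the ATPase genes *BRM* (AT2G46020), *SYD* (AT2G28290) and *CHR12* (AT3G06010), the SNF5-type gene *BSH* (AT3G17590), and *SWP73A* (AT3G01890) and *SWP73B* (AT5G14170). All 10 were present among the 16755 gene rows of the RNA table. The study sequenced RNA from 3 replicates of *ago4* seedlings and Hi-C libraries from 3 replicates each of wild-type Col-0, *nrpe1* and *ago4* seedlings, grown in long days for 2 to 3 weeks. Above-ground tissue crosslinked with formaldehyde was taken for Hi-C, and the labels list the same crosslinking for the RNA samples, for which the study's methods do not mention it. The *ago4* line carries *ago4-1* introgressed into Col-0, so that a chromosome segment around *AGO4* may come from the parent accession, and the *nrpe1* line carries *nrpd1b-11* in Col-0. Both mutants are defective in RNA-directed DNA methylation (RdDM), and the labels name no allele that all groups share. The Hi-C lists used here cover *ago4* and *nrpe1*, and Col-0 Hi-C was not analysed here.

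SWI/SNF complexes use the energy of ATP to slide or evict nucleosomes and so change which DNA is open to other proteins. Each complex is built around an ATPase, and SWI3 scaffold proteins, SNF5-type proteins and SWP73 proteins are among the other subunits of these complexes. In *Arabidopsis*, SWI3C is found with BRM, SWI3D with SYD, and SWI3A and SWI3B with the ATPases CHR12 and CHR23. In RdDM, RNA polymerase V, whose largest subunit is NRPE1, makes scaffold RNA that is bound by AGO4 with its small RNAs, and SWI3B is known to act with polymerase V in placing nucleosomes through the RNA-binding protein IDN2.

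RNA levels were available as a mean log2 CPM for each gene, where CPM is the gene's read count scaled to a fixed library total. The mean was taken over the *ago4* libraries and the wild-type libraries with which they were compared. The table gave no value per library and no replicate spread, and whether any subunit gene changed in *ago4* was not analysed here. In RNA from mixed seedling tissue, fewer cells of a type and less RNA per cell cannot be told apart. The table held 7 of 13 tissue marker genes. The leaf markers *RBCS1A*, *CAB3* and *LHCA1* stood at 1258, 1995 and 2351 CPM per kb, while markers of root endodermis, root hairs, petals, carpels, seeds and pollen (*CASP1*, *EXP7*, *AP3*, *AG*, *SESA3* and *VGD1*) were not among its rows. *PYK10*, a marker of roots that hypocotyls also express, was present at 50.9 CPM per kb, as were *SUC2* of phloem at 10.5, *ATML1* of epidermis at 3.23 and *STM* of the shoot meristem at 0.917 CPM per kb. The lowest mean log2 CPM of any gene row was −0.73.

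To compare levels between genes, each CPM was divided by the gene's annotated exon length in kb. Here and below, "all genes" means the 16604 gene rows of the RNA table with an annotated exon length. Genes without a row, such as the absent markers above, are left out of every such comparison. On that scale the 10 subunit genes ran from 1.33 to 14.4 CPM per kb with a median of 4.30, and 5 of the 10 lay above the median of all genes, 3.80 CPM per kb. *SWP73B*, *BRM* and *BSH* were above the upper quartile of all genes, 9.32 CPM per kb. *SWP73A* alone of the 10 was below the lower quartile, 1.74 CPM per kb. From highest to lowest the order was *SWP73B*, *BRM*, *BSH*, *CHR12*, *SWI3C*, *SYD*, *SWI3B*, *SWI3D*, *SWI3A* and *SWP73A*. With no spread between libraries, neighbours in this order could not be tested, and *CHR12* and *SWI3C* differed by only 5.10 against 5.08 CPM per kb.

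**Figure D1:**
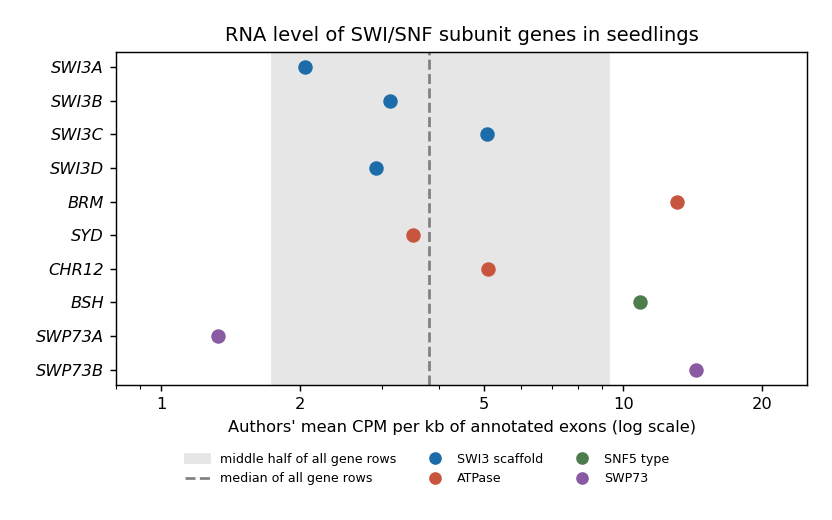
Mean level of each subunit gene in CPM per kb of annotated exons, on a log axis, coloured by subunit class, with the quartile range (grey) and median (dashed) of all genes. *SWP73B*, *BRM* and *BSH* lie above the grey band and *SWP73A* lies below it.

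The SWI3 proteins are the scaffolds on which the complexes assemble. Their genes were the most even of the 3 classes with several genes, with 3 of the 4 below the median of all genes. *SWI3C* was the highest, at 5.08 CPM per kb (mean log2 CPM 3.81), at percentile 59.4 of all genes. *SWI3B*, the partner of polymerase V, stood at 3.13 CPM per kb (mean log2 CPM 2.43), at percentile 43.6. *SWI3D* was close to it at 2.91 CPM per kb (mean log2 CPM 3.41), and *SWI3A* was the lowest at 2.05 CPM per kb (mean log2 CPM 1.99). Thus the level per kb of *SWI3C* was 1.63-fold that of *SWI3B* and 2.48-fold that of *SWI3A*. *SWI3C* made up 38.6% of the summed SWI3 level per kb, *SWI3B* 23.7%, *SWI3D* 22.1% and *SWI3A* 15.5%.

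The ATPases are the motors of the complexes, and *BRM* and *SYD* encode large, related ATPases that act in overlapping and distinct steps of development. *BRM* led this class at 13.1 CPM per kb (mean log2 CPM 6.63), at percentile 81.8 of all genes. *CHR12*, also called *MINU1* and known for a role in growth arrest under stress, stood at 5.10 CPM per kb (mean log2 CPM 4.30). *SYD* was the lowest of these 3 ATPase genes at 3.51 CPM per kb (mean log2 CPM 5.29). By CPM alone *SYD* ranked 2 of the 10, at 39.2 CPM against 19.6 CPM for *CHR12*, but its exons span 11171 bp against 3849 bp for *CHR12*, and per kb the order of the pair was the reverse. *BRM* held 60.3% of the summed level per kb of these 3 genes, *CHR12* 23.5% and *SYD* 16.2%. The sum leaves out the further SWI/SNF ATPase gene *CHR23*, at 2.95 CPM per kb. The level per kb of *BRM* was 3.73-fold that of *SYD* and 2.57-fold that of its partner gene *SWI3C*.

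*BSH* encodes the single SNF5-type subunit of *Arabidopsis*. Its level was 10.9 CPM per kb (mean log2 CPM 3.46), at percentile 78.3 of all genes and 3.48-fold that of *SWI3B* per kb. The *SWP73* genes encode a pair of related accessory subunits and were the most uneven class. *SWP73B* was at 14.4 CPM per kb (mean log2 CPM 4.82, percentile 83.4) and *SWP73A* at 1.33 CPM per kb (mean log2 CPM 1.41, percentile 18.1). The ratio of the pair was 10.8 per kb of exons and 9.09 per kb of coding sequence, and *SWP73B* held 91.5% of their summed level per kb. The authors' counting of reads shared by paralogues is not given in the sources used here, although reads that aligned to several places were tallied apart from genes.

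A further 14 genes of other SWI/SNF subunits were all in the table, with a median of 3.16 CPM per kb and 6 of 14 above the median of all genes. The bromodomain gene *BRD13* was the highest of them at 15.1 CPM per kb and *BRIP1*, which encodes a BRM-interacting protein, the lowest at 1.27 CPM per kb. *CHR23*, the close relative of *CHR12*, stood at 2.95 CPM per kb, and the level per kb of *CHR12* was 1.73-fold higher. The 9 ATPase genes of other remodelling families had a median of 4.37 CPM per kb, from *DRD1*, the RdDM remodeller, at 1.23 to the ISWI-type *CHR11* at 13.4 CPM per kb. Of 5 RdDM genes, 2 were above the median of all genes. *IDN2* was at 5.57, *AGO4* at 3.96, *SPT5L* at 2.45, *NRPE1* at 2.20 and *NRPD1*, the largest subunit of polymerase IV, at 0.584 CPM per kb. On this scale *SWI3B* therefore lay between *IDN2* and *NRPE1*. The *AGO4* value is a mean that includes the libraries of plants mutated in that gene.

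**Figure D2:**
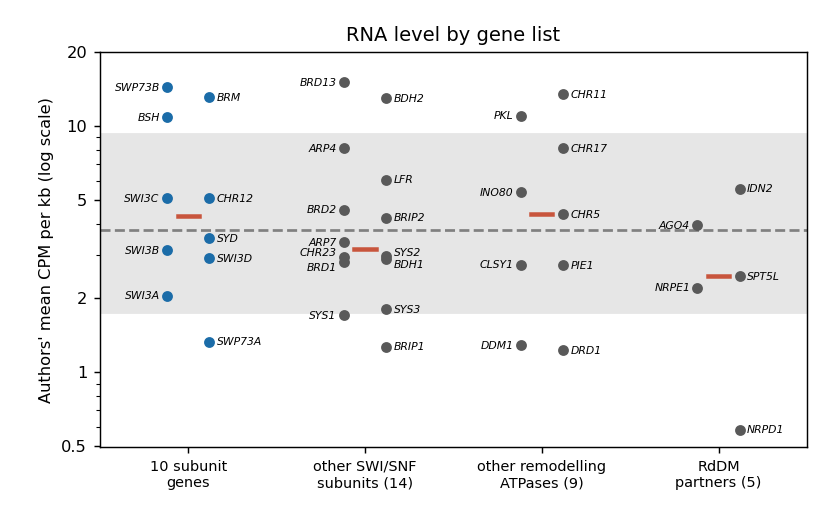
Mean level in CPM per kb of annotated exons (log axis) of the 10 subunit genes (blue) and of 3 further gene lists (grey points), with list medians (red bars) and the quartile range and median of all genes (band and dashed line). The medians are 4.30, 3.16, 4.37 and 2.45 CPM per kb from left to right.

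The position of each gene was then set against the Hi-C lists. Each list holds those differentially methylated regions (DMRs) of *nrpe1* that had a chromosomal interaction in 1 library at the authors' threshold. The DMRs are published, short regions that the paper describes as losing methylation in that mutant. A DMR without such an interaction is not listed, so distances to unlisted DMRs were not examined. An entry marks where the DMR is and not which gene it touched, so the distance from a gene to a listed DMR is a measure of position along the chromosome and not of contact. The 3 *ago4* lists held 215, 265 and 207 DMRs and the 3 *nrpe1* lists 50, 176 and 65, or 541 different DMRs in all. Distances were also taken for the 16604 gene rows of the RNA table with a nuclear position. For replicates 1, 2 and 3, their median distance to the nearest listed DMR was 348.0, 285.8 and 394.1 kb in *ago4*. In *nrpe1* it was 1474, 382.9 and 982.6 kb.

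No subunit gene had a listed DMR within 10 kb in either mutant. An approximate 95% upper limit for 10 such genes, 3 counts divided by 10, is a share of 30%. That limit takes the genes as independent draws. They are a fixed set, and *BRM* and *SWI3A* shared their nearest DMR in all 6 lists, so it is a rough guide only. Over all genes, 6.08% had a listed DMR within 10 kb in *ago4* and 3.13% in *nrpe1*. Within 250 kb, 5 of the 10 subunit genes had a DMR of any *ago4* list, against 61.1% of all genes, and 2 of the 10 had one of any *nrpe1* list, against 42.7%. With all lists of a mutant joined, the median distance for the 10 genes was 258.1 kb in *ago4* and 863.6 kb in *nrpe1*, and for all genes it was 164.7 and 327.5 kb. In each of the 6 lists, 6 to 8 of the 10 genes lay farther from a listed DMR than the median gene. The lists have DMRs in common and some of the genes share a nearest DMR, so these counts are not separate results and were not tested.

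For 5 of the 10 genes, *SWI3A*, *SWI3B*, *SWI3C*, *SWI3D* and *BRM*, the nearest DMR was closer in every *ago4* list than in any *nrpe1* list, and 27.0% of all genes had the same order. This count of 5 rests on fewer than 5 separate places, since *BRM* and *SWI3A* lie 599.9 kb apart and shared their nearest DMR in all 6 lists. Each *ago4* list was also longer than each *nrpe1* list, while the median distance over all genes was 394.1 kb for *ago4* replicate 3 against 382.9 kb for *nrpe1* replicate 2, and the part of list length in the count was not tested.

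**Figure D3:**
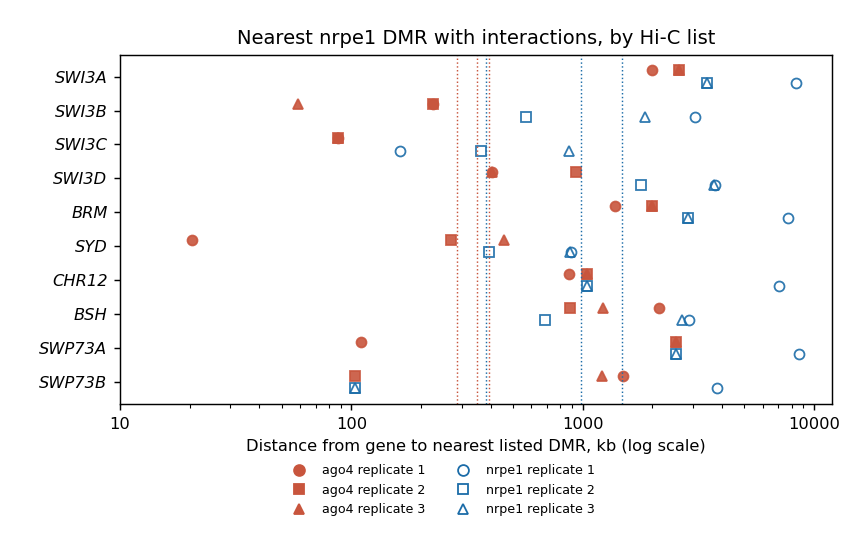
Distance in kb (log axis) from each subunit gene to the nearest DMR in each of the 3 *ago4* lists (filled) and 3 *nrpe1* lists (open), with the all-gene median of each list as a dotted line in the colour of the mutant. *SYD*, *SWI3B* and *SWI3C* reach below 100 kb in *ago4*, and no gene does in *nrpe1*.

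Among the SWI3 genes, only *SWI3C* (chr1:7620001-7624166, minus strand, TAIR10.1) had the same distance in all 3 *ago4* lists. The nearest DMR was 87.9 kb away in each of the 3 *ago4* lists and 163.0, 362.7 and 875.7 kb away in the *nrpe1* lists, so the groups did not overlap. That DMR, upstream of *SWI3C*, overlaps a coding exon of AT1G21928. *SWI3B* (chr2:14228972-14231408, plus strand) lay 225.7, 225.7 and 58.7 kb from a DMR in the *ago4* lists and 3066, 567.5 and 1851 kb in the *nrpe1* lists, again with no overlap. Its closest DMR was downstream of the gene, in an intergenic stretch 35 bp from AT2G33780, and was listed in *ago4* replicate 3 only. The DMR at 225.7 kb was in all 3 *ago4* lists.

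*SYD* (chr2:12056213-12073279, plus strand) had the shortest distance of any of the 10 genes. A DMR in *ago4* replicate 1 lay 20.4 kb downstream, in an intergenic stretch 578 bp from AT2G28320. In *ago4* replicates 2 and 3 the nearest DMR was 268.8 and 458.7 kb away, and in *nrpe1* the distances were 893.0, 392.4 and 878.9 kb, so the groups overlapped. All 3 DMRs within 250 kb of *SYD* were listed in *ago4* replicate 1 alone. *SYD* is also the subunit gene closest to *AGO4*, at 513.8 kb, and whether the introgressed segment reaches it was not tested.

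The DMRs nearest to *SWI3B*, *SWI3C* and *SYD* are shown because these are the only listed sites within 100 kb that were the closest one to a subunit gene. They are read 5′ to 3′ from the plus strand of TAIR10.1, with the *Dpn*II site GATC, where the Hi-C digest cuts, in capitals. The first 300 bases are given for *SWI3B* (chr2:14290064-14290363) and *SYD* (chr2:12093664-12093963), and all 224 bases for *SWI3C* (chr1:7712090-7712313).
near SWI3B: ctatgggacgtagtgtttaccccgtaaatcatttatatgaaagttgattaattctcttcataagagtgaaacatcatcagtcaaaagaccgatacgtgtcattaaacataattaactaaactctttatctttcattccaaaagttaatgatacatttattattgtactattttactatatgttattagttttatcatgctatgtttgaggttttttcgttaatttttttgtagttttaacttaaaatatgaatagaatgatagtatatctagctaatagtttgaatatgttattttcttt
near SWI3C: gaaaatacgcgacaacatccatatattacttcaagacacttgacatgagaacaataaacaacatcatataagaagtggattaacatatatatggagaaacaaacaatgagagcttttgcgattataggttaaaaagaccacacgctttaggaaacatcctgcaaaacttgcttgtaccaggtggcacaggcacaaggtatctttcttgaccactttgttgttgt
near SYD: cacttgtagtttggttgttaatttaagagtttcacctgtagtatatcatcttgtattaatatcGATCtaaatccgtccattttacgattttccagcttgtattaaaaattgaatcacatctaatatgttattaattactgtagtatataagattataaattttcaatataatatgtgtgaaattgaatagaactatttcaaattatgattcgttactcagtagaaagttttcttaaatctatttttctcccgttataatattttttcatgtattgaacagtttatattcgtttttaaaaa
These stretches are rich in A and T, with 23.7% G and C near *SYD* and 36.6% near *SWI3C*, and the *SYD* stretch holds 1 GATC while the other two hold none. Over the 541 listed DMRs the median was 31.3% G and C, and 64.1% held at least 1 GATC.

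*BRM* (chr2:18922533-18932055, plus strand) and *SWI3A* (chr2:19531939-19534471, plus strand) stood far from every list. The distances of *BRM* were 1376, 2000 and 2000 kb in *ago4* and 7759, 2840 and 2840 kb in *nrpe1*, and those of *SWI3A* were 1985, 2610 and 2610 kb and 8369, 3449 and 3449 kb. Both genes lie beyond the last listed DMR of chromosome 2, which ends at position 17546824. No listed DMR was found in the last 2.15 Mb of that chromosome, which holds 420 gene rows. *BRM* also overlaps AT2G46030 on the opposite strand by 37 bp, the only overlap with another gene among the 10.

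*SWI3D* (chr4:16460907-16465524, plus strand) had distances of 405.7, 938.7 and 405.7 kb in *ago4* and 3741, 1790 and 3692 kb in *nrpe1*. *CHR12* (chr3:1802141-1807530, minus strand) had distances of 868.6, 1042 and 1042 kb in *ago4* and 7096, 1042 and 1042 kb in *nrpe1*. The same DMR was thus the nearest in 4 of the 6 lists for *CHR12*, and its groups overlapped, while those of *SWI3D* did not.

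*BSH* (chr3:6017166-6019724, minus strand) was 2130, 879.2 and 1220 kb from a DMR in *ago4* and 2884, 685.4 and 2695 kb in *nrpe1*. *SWP73A* (chr3:310007-312073, plus strand) was 110.5 kb from a DMR in *ago4* replicate 1 and 2537 kb in replicates 2 and 3, and its *nrpe1* distances were 8591, 2537 and 2537 kb. For both genes the groups overlapped. *SWP73B* (chr5:4568480-4570994, minus strand) was the only gene with 1 nearby DMR in lists of both mutants. That DMR was 103.4 kb away in *ago4* replicate 2 and in *nrpe1* replicates 2 and 3. In the other lists the distances of *SWP73B* were 1501 and 1214 kb for *ago4* and 3791 kb for *nrpe1*.

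In all, 12 listed DMRs lay within 250 kb of 5 subunit genes, 5 of them near *SWI3C*, 3 near *SYD*, 2 near *SWI3B* and 1 each near *SWP73A* and *SWP73B*. Of the 12, 10 were listed in *ago4* only, 1 in *nrpe1* only and 1 in both. Over all 541 DMRs, 60.3% were listed in *ago4* only.

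To account for the length of the lists, the share of each list within 250 kb of a subunit gene was compared between the mutants. The share was 3.26% (7 of 215, 95% Wilson interval 1.59 to 6.57), 1.51% (4 of 265, 0.589 to 3.82) and 1.93% (4 of 207, 0.754 to 4.86) in *ago4* replicates 1, 2 and 3. It was 2.00% (1 of 50, 0.354 to 10.5), 0.568% (1 of 176, 0.100 to 3.15) and 1.54% (1 of 65, 0.272 to 8.21) in *nrpe1*. The intervals cover counting error only, and the intervals of the 2 mutants overlapped in each replicate.

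The mean share was 2.23% ± 0.911 (SD, n = 3) in *ago4* and 1.37% ± 0.731 (SD, n = 3) in *nrpe1*. The difference of 0.864 ± 0.436 percentage points (SD, n = 3) was positive in 3 of 3 replicates but did not pass the two-sided exact sign-flip permutation test (p = 0.25, the smallest that 3 pairs allow). The difference was 0.399 points without *SYD*, 0.261 points without *SWI3B* and 0.647 points without *SWI3C*, so it rested in part on each of these genes. With any of these genes left out, it was no longer positive in all 3 replicates. The 250 kb windows cover 4.24% of the nuclear genome, and all 6 shares were below that value. It is a share of length and not an expected share, since the listed DMRs were not spread evenly along the chromosomes. Of these DMRs, 41.8% lay within 3 Mb of the stand-in for the centromere described below, where none of the 10 genes lay. The shares were therefore not tested against that value.

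**Figure D4:**
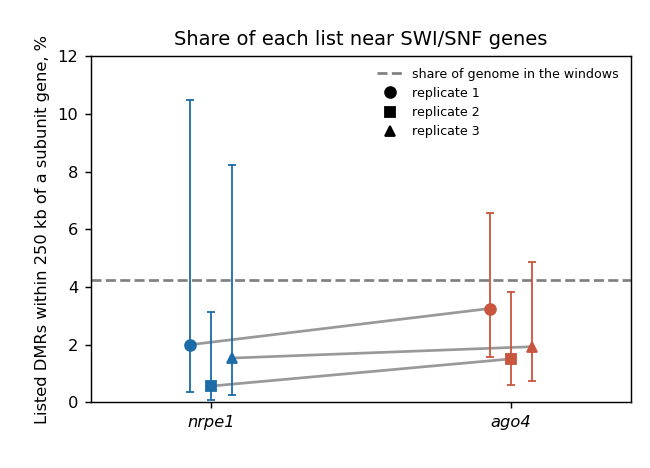
Share of each list, in percent, that lay within 250 kb of a subunit gene, with 95% Wilson intervals. Grey lines join replicates of the same number, and the dashed line is the 4.24% of the nuclear genome in the windows. The share is higher in *ago4* in each of the 3 pairs, and all 6 points lie below the dashed line. The line is a share of length and not an expected share, since the listed DMRs were not evenly spread.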

How the data were processed

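Seedling RNA was analysed from a deposited gene table and Hi-C from 6 deposited lists, 3 each for *ago4* and *nrpe1*. The authors mapped rRNA-depleted RNA to TAIR10 with TopHat2 and used edgeR; the deposited log2 CPM is the mean over the *ago4* and Col-0 libraries, and the Col-0 libraries are not samples of this series. The submitters' processing notes also name Bowtie. The other columns hold the authors' own fold change and p-value for *ago4* against Col-0 and were not used. Rows that name no gene made up most of the summed CPM (multiply aligned reads 57.4%, no feature 2.22%, ambiguous 1.02%), genes 39.3%. Depth per RNA library is not given in the table.

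Levels were raised from log2 to CPM and divided by the union of annotated exons in TAIR10.1 (RefSeq), available for 16604 gene rows. The lists give the coordinates of published *nrpe1* DMRs with interactions in 1 library, at the authors' threshold, and were matched to samples by genotype and replicate number. Nuclear chromosome sequences are the same in both builds; starts were read as counted from 1 and may be off by 1. Distances ran from gene body to DMR.

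Shares were compared as paired replicates, after the study's own paired tests, with an exact two-sided sign-flip permutation test. Nothing beyond the label "Rep" and the description as biological replicates says that these were separate cultures. The subunit genes and the gene lists were chosen with earlier results of these data known. The text names all 10 subunit genes, and from other lists the extremes, *CHR23*, the RdDM genes and the tissue markers. Alternatives were the exon model, level filters, windows, replicates left out, an unpaired test and the list normalisation. Scripts used Python 3.11.15, numpy 2.4.6, pandas 2.3.3 and scipy 1.17.1, and were tested on simulated data.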

Additional observations from a re-analysis of the deposited data

How the results depend on the processing

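The level median of the 10 subunit genes was 4.30 CPM per kb of exons, 4.32 with the longest transcript and 4.81 with coding length, and its percentile among all genes was 54.1, against 53.7 for genes with a mean log2 CPM of at least 0 and 53.5 for nuclear protein-coding genes. Measured per kb of coding length, *BSH* ranked above *BRM* and *SWI3B* above *SYD*, and the other 6 genes kept their places. The number of subunit genes with an *ago4* DMR nearby was 0 at 10 kb and 1 (*SYD*) at 50 kb, and that DMR was in replicate 1 only. The mean difference in share kept its sign under every alternative tried. It was 0.884 points at 100 kb and 2.31 points at 500 kb, and ranged from 0.668 to 1.10 points when 1 replicate number was left out. The values without *SYD*, *SWI3B* or *SWI3C* were added after seeing the data. In each of those the mean was positive but not all 3 replicates were. Without the replicate block the difference was 0.864 points with an exact permutation p of 0.5. Same-numbered *ago4* and *nrpe1* lists had correlations of 0.159, 0.111 and −0.005 in their deviations from the group means over the 541 DMRs, so the numbers were not shown to pair the samples. With 3 replicates and 1 to 7 DMRs per share, no alternative could pass the threshold, and the p-values say nothing about stability.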

Other observations

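As a stand-in for the centromere, each chromosome was cut into bins of 1 Mb. The bin poorest in annotated protein-coding genes was taken, with the first and last bins left out. The distance of the subunit genes from it ran from 6.43 Mb for *SWP73B* to 14.5 Mb for *SWI3A* with a median of 10.2 Mb, against 7.80 Mb over 16604 genes and 3.64 Mb over the 541 listed DMRs. Of the 10 genes, 6 were farther from it than the median of all genes and 4 (*SWP73B*, *BSH*, *SYD* and *SWI3C*) were closer. None of the 10 genes was within 3 Mb of it, where 13.2% of all genes and 41.8% of the listed DMRs were. Chromosome 2 held 4 of the 10 genes and 31.4% of the listed DMRs but 16.5% of the nuclear genome, and *BRM* and *SWI3A* were on the part of its arm that held no listed DMR. Whether arm position accounts for the distances in the report was not tested.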
